A study of Mus musculus with 18 samples.

Results

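The genes described here encode the proteasome: its subunits, the proteins that activate or inhibit it and the factors that assemble it. They were taken by symbol, as every gene on the array that a probe set names alone and whose symbol begins with Psma, Psmb, Psmc, Psmd, Psme, Psmf or Psmg and a digit. The rule found 48 genes of 12393 and 85 of the 22626 probe sets tested. A gene with several probe sets was read from the one with the highest mean signal, and none was left out for a low signal. The genes fall into 8 alpha-ring and 7 beta-ring subunits of the 20S core, 4 immunoproteasome genes, 6 ATPases and 11 non-ATPase subunits of the 19S cap, 3 genes of other activators and an inhibitor, and 7 assembly factors. The remaining 2, Psmc3ip and Psme3ip1, share the symbols but encode no part of the particle, so the description as proteasome genes does not hold for them. Psme2 was not read, because the probe set that carries it names a second gene as well.

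RNA was measured in soleus, a slow postural muscle of the calf, and in extensor digitorum longus (EDL), a fast muscle of the shin. Flown mice (BF) spent 30 days in microgravity on the Bion-M1 biosatellite and reached the laboratory 12 to 14 h after landing. Flight Control mice (FC) lived in a standard animal facility on chow, and Bion Ground mice (BG) lived on the ground in the flight habitat and, like BF mice, ate the paste food of the flight. All were male mice of 1 strain, given as C57/BL6 in the sample labels and C57BL/N6 in the series design, 19 to 20 weeks old, with no allele or drug named for any group. The descriptions of BF EDL 2 and BF EDL 3 give the satellite's name with another number than that of BF EDL 1, while the source names of all 3 give Bion M1, and both were taken as BF from their titles. Each of the 6 groups has 3 arrays, 18 in all, and an array is named by its group and replicate number (BF soleus 1). Housing and diet changed together between FC and BG, and the effects of flight, of launch and landing and of the hours after landing cannot be told apart in BF.

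The proteasome is the protease that degrades proteins tagged with ubiquitin, and in skeletal muscle it carries much of the breakdown of contractile proteins when a muscle is unloaded, fasted or denervated. Rings of alpha and beta subunits form the core, whose beta subunits cut the chain, while the cap recognises ubiquitin, unfolds the substrate with its ring of ATPases and feeds it into the core. Interferon exchanges the catalytic beta subunits for immunoproteasome forms, and dedicated chaperones bring the rings together and then leave.

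Most of the genes gave a strong signal. On the log2 scale, 44 of 48 lay above the median gene and 29 of 48 above the 90th percentile, although probe sets differ in brightness and a higher signal is not a measure of more RNA. The median signal was 10.66 in the alpha ring, 10.98 in the beta ring, 10.26 in the cap ATPases and 10.94 in the other cap subunits, against 6.68 over all genes. Assembly factors, at 7.64, and the immunoproteasome genes, at 6.86, stood near the middle of the array. Psma8, the testis form of an alpha subunit, was read between 3.64 and 3.98 on all 18 arrays, at percentile 9.8 of all genes.

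The start of the gene was available in RefSeq (GRCm38.p6) for 40 of the 48 genes, from 250 bases before to 50 bases after it. The antioxidant response element, the site of the NRF factors that raise proteasome genes, was searched as TGACNNNGC on both strands, and 6 of 40 genes held it, a share of 15%, against 14% of 27025 genes in the same window. Matches that lie before the start in a catalytic subunit (Psmb5), a cap ATPase (Psmc6), a lid subunit (Psmd12) and an assembly factor (Psmd9), genes described below, are shown as examples with the element in capitals. In Psmc6 and Psmd12 it runs on the opposite strand, so the capitals read as its reverse complement. The stretches lie at chr14:54618009-54618067 (minus strand), chr14:45329574-45329630, chr11:107479278-107479314 and chr5:123228134-123228189 (plus strand).
Psmb5: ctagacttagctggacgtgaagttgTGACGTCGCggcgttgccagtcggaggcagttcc
Psmc6: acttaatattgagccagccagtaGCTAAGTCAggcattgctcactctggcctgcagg
Psmd12: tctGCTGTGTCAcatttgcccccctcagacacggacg
Psmd9: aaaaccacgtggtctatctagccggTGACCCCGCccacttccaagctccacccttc
The CCAAT box was held by 15 of 40 genes (37.5%, against 41.1% of all), with 5 of the 7 alpha-ring genes among them. The interferon-stimulated response element, searched as 2 copies of GAAA with any 2 bases between them, on both strands, was held by 5 of 40 (12.5%, against 3.99% of all), of which Psme1 is the 1 immunoproteasome gene. A match is a run of letters and no measured site.

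Libraries of FC soleus stood apart in the quality of their RNA ends. The array carries control probe sets for the 3′ and the 5′ end of Gapdh and beta-actin, and a larger 3′ minus 5′ difference means that fewer transcripts reached their 5′ end. For Gapdh it was 0.58 to 0.86 in FC soleus, against 0.09 to 0.32 in BF soleus and 0.04 to 0.10 in BG soleus, on the log2 scale. For beta-actin it was 0.48 to 0.58, against 0.04 to 0.18 in BF soleus and -0.12 to 0.13 in BG soleus. FC soleus overlapped with neither group, so that FC housing and the state of the RNA cannot be told apart in any comparison with FC soleus. The mean of both controls was 0.61 (SD 0.09) in FC soleus, against 0.15 (SD 0.09) in BF soleus and 0.02 (SD 0.06) in BG soleus. A fit with this signal as a covariate takes its slope from the small differences within groups. It cannot separate RNA ends from the FC soleus group, and no conclusion is drawn from calls it lost or signs it changed. In EDL the Gapdh difference was 0.03 to 0.10 in BF, 0.17 to 0.20 in FC and 0.01 to 0.35 in BG, where BG EDL 2 held the 0.35, and that of beta-actin was -0.15 to 0.05 in BF, 0.17 to 0.25 in FC and -0.12 to 0.145 in BG. Within each of the 6 groups, arrays correlated at 0.978 to 0.995 across all probe sets. Slow-fibre markers labelled the muscles as named: 6 of 6 were higher in soleus than in EDL in each condition.

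Flown soleus differed from BG soleus in 10 of the 48 genes, 8 lower and 2 higher. A gene was called at an adjusted p under 0.05 (limma, Benjamini-Hochberg over all probe sets), and in this comparison the same rule called 12.3% of all genes lower and 11.1% higher, so the share of 16.7% of proteasome genes that were lower is near the background and the share of 4.17% that were higher is below it. The lower genes were 3 of 6 cap ATPases, 3 of 7 assembly factors, 1 of 8 alpha-ring subunits and the inhibitor Psmf1. The higher ones were 2 of 11 non-ATPase cap subunits, and no beta-ring or immunoproteasome gene was called by its brightest probe set. A second probe set of the beta subunit Psmb4, at a mean signal of 10.44, was lower (-0.86, adjusted p = 0.014). So were other probe sets of Psmd13 (-0.43, adjusted p = 0.014) and Psme3 (-0.45, adjusted p = 0.017). Of all 37 other probe sets, 4 were lower and 6 higher. The median log2 fold change of the 48 genes was -0.11, against 0.03 over all genes. Most of the 48 gave a strong signal. Over the 7016 genes with a probe set above the median mean signal, the median was -0.0879, with 745 higher and 1456 lower. The median of the 48 became 0.00 when the arrays of each muscle were quantile-normalized apart. That left 2 genes lower and 2 higher, with 1208 of all 12393 genes lower and 1184 higher. None of the 48 passed 2-fold. With the 3′ minus 5′ signal as a covariate, chosen after seeing the data, 3 genes were called (Psmd8 at 0.70, Psma5 at -0.54 and Psmd10 at -0.49), against 963 higher and 1259 lower of all 12393. The methods' own contrasts called 2 of the 48, both lower, with 464 of all 12393 genes higher and 848 lower.

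**Figure D1:**
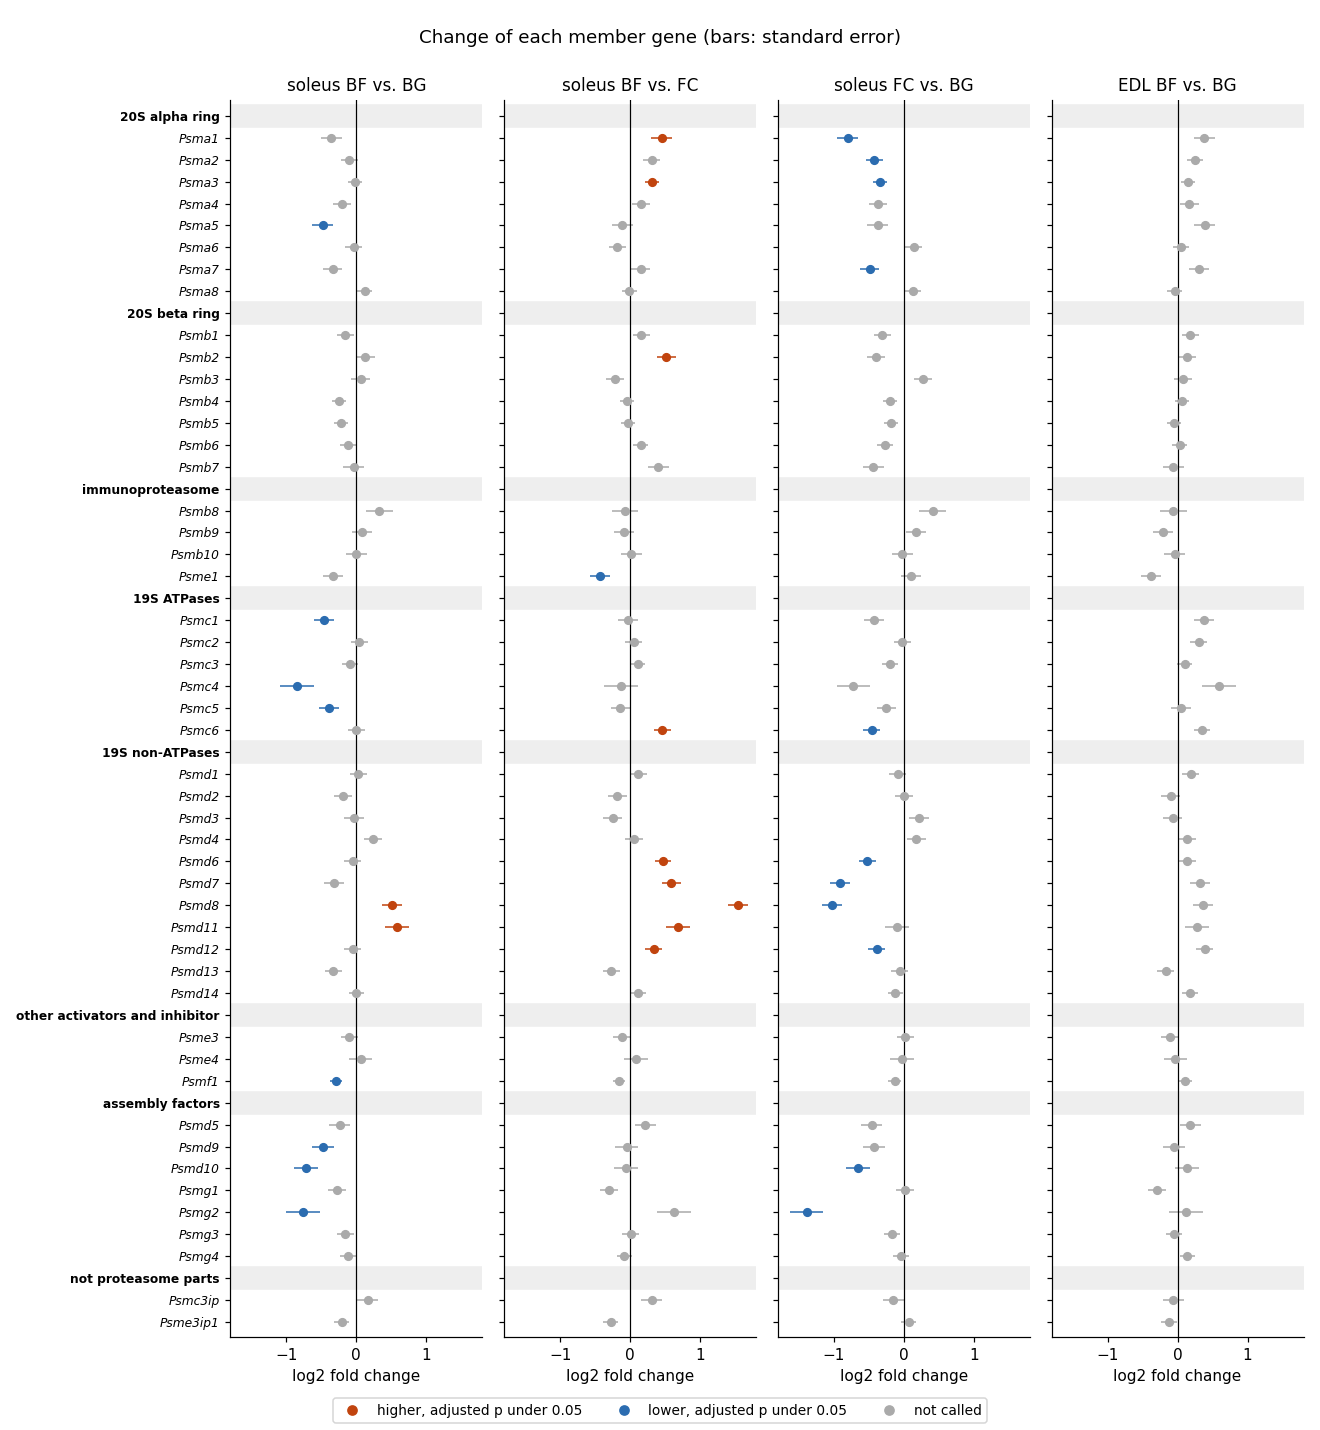
Log2 fold change of each of the 48 genes (rows, by role) in 4 comparisons, with its standard error as a bar. Called genes are red (higher) or blue (lower); in the 3 soleus panels the 10, 10 and 11 called genes are spread over roles, and no gene is called in EDL BF vs. BG.

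The 3 cap ATPases that were lower belong to the ring that unfolds substrates. Psmc4 read 9.67, 9.78 and 9.70 in BF soleus, against 10.24, 10.85 and 10.62 in BG soleus, a log2 fold change of -0.85 (SE 0.24, adjusted p = 0.020). All BF arrays lay below all BG arrays. Such separation is given here and below as a description of single genes, and its share over all genes was not computed. Leaving out BF soleus 1, BG soleus 2 or BG soleus 3 lost the call (adjusted p = 0.057, 0.087 and 0.061), and the second probe set of Psmc4, at a mean signal of 9.60, gave -0.17 (adjusted p = 0.36). Psmc1 read 9.92, 9.60 and 9.98 in BF soleus, against 10.15, 10.43 and 10.30 in BG soleus, a change of -0.46 (SE 0.14, adjusted p = 0.028). These groups did not overlap either, and the call was lost without BF soleus 2, BG soleus 2 or BG soleus 3 (adjusted p = 0.11, 0.11 and 0.075). Psmc5 was lower by the smallest margin (-0.39, SE 0.14, adjusted p = 0.049), and 15 of the 18 fits that left out 1 array did not call it (highest adjusted p = 0.17, without BF soleus 2).

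Among the assembly factors, Psmd10 (gankyrin), a chaperone of the ATPase ring, read 6.62, 6.94 and 6.98 in BF soleus, against 7.42, 7.61 and 7.68 in BG soleus. The fold change was -0.72 (SE 0.17, adjusted p = 0.0076), with no overlap, and the call held in 18 of 18 fits that left out 1 array. Psmg2, a chaperone that starts the alpha ring, read 8.18, 8.58 and 8.75 in BF soleus, against 8.98, 9.46 and 9.34 in BG soleus. That is a change of -0.76 (SE 0.24, adjusted p = 0.031) with no overlap, lost without BF soleus 1, BF soleus 2, BG soleus 2 or BG soleus 3 (adjusted p = 0.13, 0.051, 0.11 and 0.092). Its second probe set, at a mean signal of 8.56, was lower too (-0.43, adjusted p = 0.022). Psmd9, another chaperone of the ATPases, changed by -0.48 (SE 0.16, adjusted p = 0.041), and 8 of the 18 fits with 1 array left out did not call it (highest adjusted p = 0.11, without BG soleus 3). The other 4 assembly factors had negative changes that were not called, Psmg1 (-0.28) with an unadjusted p of 0.049 and an adjusted p of 0.13, and over all 7 the range was -0.76 to -0.12.

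The alpha-ring subunit Psma5 read 10.42, 10.14 and 10.38 in BF soleus, against 10.48, 11.06 and 10.85 in BG soleus (log2 fold change -0.48, SE 0.15, adjusted p = 0.029). The lowest BG array lay just above the highest BF array. Without BF soleus 2, BG soleus 2 or BG soleus 3 the call was lost (adjusted p = 0.098, 0.14 and 0.088), and a second bright probe set of Psma5, at 10.13, gave -0.14 (adjusted p = 0.49). Psmf1, an inhibitor of the core in the test tube, read 6.74, 6.84 and 6.82 in BF soleus, against 7.03, 7.26 and 6.99 in BG soleus. Its change of -0.29 (SE 0.09, adjusted p = 0.034) was lost without BF soleus 1, BF soleus 3 or BG soleus 2 (adjusted p = 0.10, 0.053 and 0.16). Of 14 other settings, 4 kept the call of Psmf1. None of its other, dimmer probe sets was called (-0.28, -0.18 and -0.01).

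The 2 genes that were higher in flown soleus are both subunits of the lid, the part of the cap that removes ubiquitin. Psmd11, known for promoting the joining of cap and core, read 12.34, 12.61 and 11.81 in BF soleus, against 11.61, 11.91 and 11.51 in BG soleus. The third BF array lay below the second BG array, so that the groups overlapped, and the change was 0.58 (SE 0.17, adjusted p = 0.020). It was lost without BF soleus 1, BF soleus 2, BG soleus 1 or BG soleus 3 (adjusted p = 0.067, 0.093, 0.061 and 0.088). All 6 probe sets of Psmd11 gave a positive change, 0.18 to 0.81, and 5 of them were called. Psmd8 read 11.96, 12.26 and 12.01 in BF soleus, against 11.64, 11.66 and 11.39 in BG soleus, a change of 0.51 (SE 0.14, adjusted p = 0.018). Every BF array was above every BG array, and the call was lost without BF soleus 2 or BG soleus 3 (adjusted p = 0.071 and 0.089).

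The count of called genes depended on single arrays: it was 5 without BF soleus 1, 4 without BF soleus 2, 3 without BG soleus 2 and 2 without BG soleus 3. Here and below, the share of all genes called in fits with 1 array left out is not given. These counts therefore do not set the proteasome genes apart from other genes. Markers of other cells and of fast fibres moved in the same comparison. Fat-cell markers were higher in all 3 measured, at a mean signal of 8.53 to 9.98 in BF soleus, against 6.29 to 7.0 in BG soleus. Of 12 leukocyte markers 1, Cd68, was higher, and the mean of the list was 6.51 to 7.03 in BF soleus, against 6.06 to 6.15 in BG soleus. Fast-fibre markers were higher in 4 of 7 and endothelial markers lower in 3 of 6. None of 6 slow-fibre markers was called, with list means of 12.91 to 13.40 in BF soleus, against 13.82 to 13.85 in BG soleus. In each of the 6, all BF soleus arrays lay below all BG soleus arrays. The model's estimate of the spread includes the EDL arrays, where Myh7 read 5.55 to 10.75, so the missing calls do not show that these markers were unchanged. In bulk muscle, fewer cells of a type and less RNA per cell cannot be told apart, and the part of these shifts in the proteasome values was not tested.

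**Figure D2:**
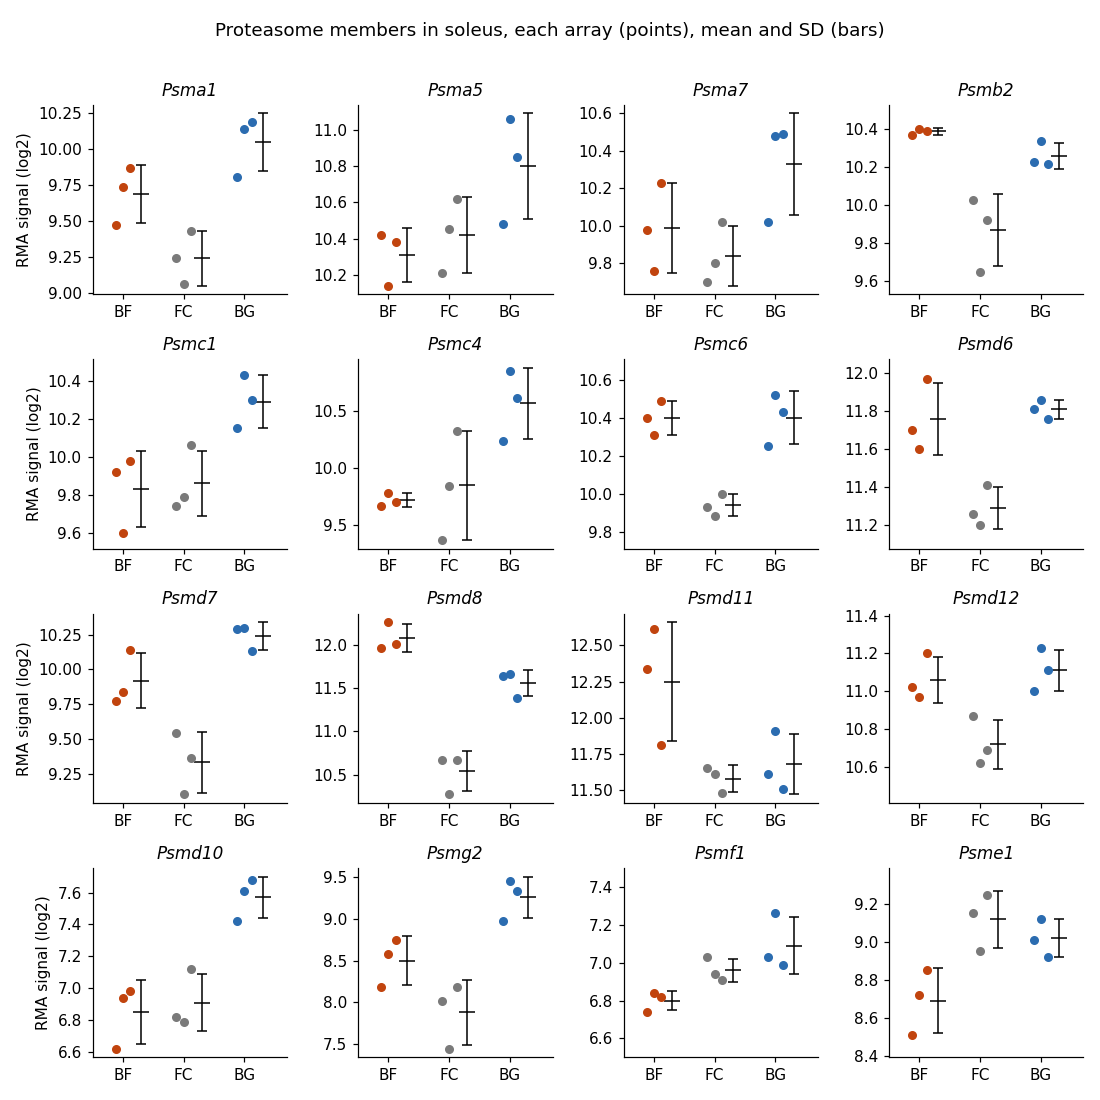
RMA signal (log2, vertical axis) of 16 proteasome genes in soleus, 1 point for each array, for BF (red), FC (grey) and BG (blue), with mean and SD as bars beside the 3 points. Psmd8 and Psmd11 are highest in BF, Psmd10 is high in BG alone, and Psmd7, Psmd6 and Psmc6 are low in FC alone.

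Against FC soleus, flown soleus was higher in 9 of the 48 genes and lower in 1. Over all genes, 9.02% were higher and 16.0% lower, against 18.8% and 2.08% of the proteasome genes. The higher genes were 5 of 11 non-ATPase cap subunits, 2 of 8 alpha-ring subunits, 1 of 7 beta-ring subunits and 1 of 6 ATPases, while no assembly factor was called. The median change of the 48 was 0.04, against 0.00 over all genes. Over the 7016 genes with a probe set above the median mean signal, it was -0.125, with 808 higher and 1880 lower. The median of the 48 changed sign to -0.07 when the 3′ minus 5′ control signal entered the fit. With that covariate none of the 48 genes was called and 19 of all 12393 were, while 17 of 48 had an unadjusted p under 0.05 in the fit without it, against 37.5% of all genes. The methods' own contrasts called 5 of the 48, with 541 of all 12393 genes higher and 1295 lower.

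Psmd8 changed most. Its FC soleus arrays read 10.67, 10.27 and 10.67, more than 1 log2 unit under its BF arrays given above, for a change of 1.54 (SE 0.14, adjusted p = 5.8e-06), and leaving out any 1 of the 18 arrays kept the call, which the covariate lost (0.83, adjusted p = 0.15). Psmd7, a lid subunit paired with the lid's ubiquitin-cutting enzyme, read 9.77, 9.84 and 10.14 in BF soleus, against 9.54, 9.10 and 9.36 in FC soleus (0.59, SE 0.14, adjusted p = 0.0060). Psmd11 read 11.65, 11.61 and 11.48 in FC soleus, all below its BF arrays (0.68, SE 0.17, adjusted p = 0.0071). In each of these 3 lid subunits the groups were separate, a trait whose share over all genes was not computed. With the covariate Psmd7 turned to -0.22.

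Psmd6, another lid subunit, read 11.70, 11.60 and 11.97 in BF soleus, against 11.26, 11.20 and 11.41 in FC soleus (0.47, SE 0.12, adjusted p = 0.0082). Its other probe set, at a mean signal of 10.55, gave 0.07 (adjusted p = 0.85). Psmc6, a cap ATPase, read 10.40, 10.31 and 10.49 in BF soleus, against 9.93, 9.88 and 10 in FC soleus (0.46, SE 0.12, adjusted p = 0.0086). Psmb2, a beta subunit without a catalytic site, read 10.37, 10.40 and 10.39 in BF soleus, against 10.03, 9.65 and 9.92 in FC soleus (0.52, SE 0.13, adjusted p = 0.0075). The calls of Psmd6, Psmc6 and Psmb2, like those of Psmd7 and Psmd11, held in 18 of 18 fits that left out 1 array. Those of Psmd6 and Psmc6 were lost with the mean of all probe sets of a gene and with the probe set of largest variance. Psma3, an alpha subunit, read 11.90, 11.98 and 11.99 in BF soleus, against 11.51, 11.66 and 11.75 in FC soleus (0.32, SE 0.10, adjusted p = 0.031), and its call was lost without BF soleus 2, BF soleus 3, FC soleus 1 or FC soleus 2 (adjusted p = 0.071, 0.075, 0.12 and 0.067). Psma1 (0.45, adjusted p = 0.041) and Psmd12 (0.34, adjusted p = 0.043) completed the 9, turned to -0.15 and -0.02 with the covariate, and were lost in 5 and 8 of the 18 fits with 1 array left out (highest adjusted p = 0.17, without FC soleus 2, and 0.15, without FC soleus 2 or BF soleus 3). In this comparison fat-cell markers were higher in all 3 measured (mean signal 8.53 to 9.98 in BF soleus, against 7.07 to 7.35 in FC soleus), fast-fibre markers in 4 of 7, and endothelial markers were lower in 4 of 6. Of 12 leukocyte markers 1 was higher and 2 lower. None of 6 slow-fibre markers was called, with list means of 12.91 to 13.40 in BF soleus, against 13.81 to 13.86 in FC soleus. All BF soleus arrays lay below all FC soleus arrays in each of the 6, and the spread in the model again includes the EDL arrays. The part of these markers in the proteasome values was not tested.

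FC soleus, set against BG soleus, had 11 of the 48 genes lower and none higher. Among all genes 4.03% were lower and 5.78% higher, so the 22.9% of proteasome genes that were lower stand above the background of this comparison. The lower genes were 4 of 8 alpha-ring subunits, 4 of 11 non-ATPase cap subunits, 2 of 7 assembly factors and 1 of 6 ATPases. Signs ran the same way beyond the calls, with 37 of 48 changes negative, against 40.7% of all genes, and a median of -0.19, against 0.05 over all genes. Over the 7016 genes with a probe set above the median mean signal, the median was 0.0448, with 688 higher and 532 lower. This comparison shares its FC arrays with BF vs. FC and its BG arrays with BF vs. BG, and it pairs the libraries with the largest gap in 3′ minus 5′ signal. A fit with that signal cannot separate it from the FC group. With that signal in the fit, 0 of 48 and 0 of 12393 genes were called, and the median of the 48 was -0.03. Without it, 23 of 48 genes had an unadjusted p under 0.05, against 25% of all genes. Array weights called 21 of 48, all lower, with 1186 of all 12393 genes lower and 1820 higher. Quantile normalization within each muscle called 6 lower and 1, Psmb3, higher, with 409 of all genes lower and 678 higher.

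Psmg2 showed the largest change of the 48, with 8.01, 7.44 and 8.18 in FC soleus, all below the BG arrays given above (-1.39, SE 0.24, adjusted p = 0.0022). Its second probe set gave -0.55 (adjusted p = 0.011). For Psmd8 the change was -1.03 (SE 0.14, adjusted p = 0.00082). These 2 were the genes past 2-fold. Leaving out any 1 array kept both calls, while with the 3′ minus 5′ covariate Psmg2 turned to 0.35 and Psmd8 was -0.13, neither called.

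Psmd7 read 10.29, 10.30 and 10.13 in BG soleus, and all FC arrays were lower (-0.91, SE 0.14, adjusted p = 0.0012). Psma1, an alpha subunit, read 9.24, 9.06 and 9.43 in FC soleus, against 9.81, 10.14 and 10.19 in BG soleus (-0.80, SE 0.15, adjusted p = 0.0036). Its BF arrays, at 9.47, 9.74 and 9.87, lay between the ground groups and overlapped with BG by 1 array. Psmd6 read 11.81, 11.86 and 11.76 in BG soleus, above all FC arrays (-0.52, SE 0.12, adjusted p = 0.010). Psmd7 and Psma1 were called in 18 of 18 fits with 1 array left out, and Psmd6 in all but that without FC soleus 2 (adjusted p = 0.058). The mean of all probe sets of a gene lost the calls of Psmd7 and Psma1, and the probe set of largest variance lost that of Psmd6. With the covariate Psmd7 and Psmd6 turned to 0.11 and 0.05, and Psma1 was -0.05.

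Psmc6 read 10.25, 10.52 and 10.43 in BG soleus, with no overlap with FC (-0.46, SE 0.12, adjusted p = 0.020), and was not called without BG soleus 2, BG soleus 3, FC soleus 1 or FC soleus 2 (adjusted p = 0.080, 0.069, 0.053 and 0.086). Psmd10 read 6.82, 6.79 and 7.12 in FC soleus, near its BF arrays and below its BG arrays (-0.66, SE 0.17, adjusted p = 0.023). Leaving out the same 4 arrays lost this call too (adjusted p = 0.067, 0.089, 0.075 and 0.10), and the covariate turned it to 0.43. Psma2, an alpha subunit, read 10.35, 10.29 and 10.64 in FC soleus, against 10.70, 10.99 and 10.84 in BG soleus (-0.42, SE 0.12, adjusted p = 0.034), again lost without any of these 4 (adjusted p = 0.13, 0.093, 0.11 and 0.15). The remaining calls were Psma7 (-0.49), Psmd12 (-0.39, and 0.07 with the covariate) and Psma3 (-0.34), each lost in 4 to 6 of the 18 fits. Without these arrays the count of called genes fell to 5 (BG soleus 2), 5 (BG soleus 3), 6 (FC soleus 1) and 4 (FC soleus 2).

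Leukocyte markers were higher in 2 of 12 in FC soleus, with list means of 6.40 to 6.43, against 6.06 to 6.15 in BG soleus. Of 6 endothelial markers 1, Emcn, was lower. Fat-cell markers were not called, with means of 7.07 to 7.35 in FC soleus that lay above the 6.29 to 7.0 of BG soleus. The part of these markers in the proteasome values was not tested, and that of the RNA ends cannot be separated from the FC group by the covariate fit above.

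**Figure D3:**
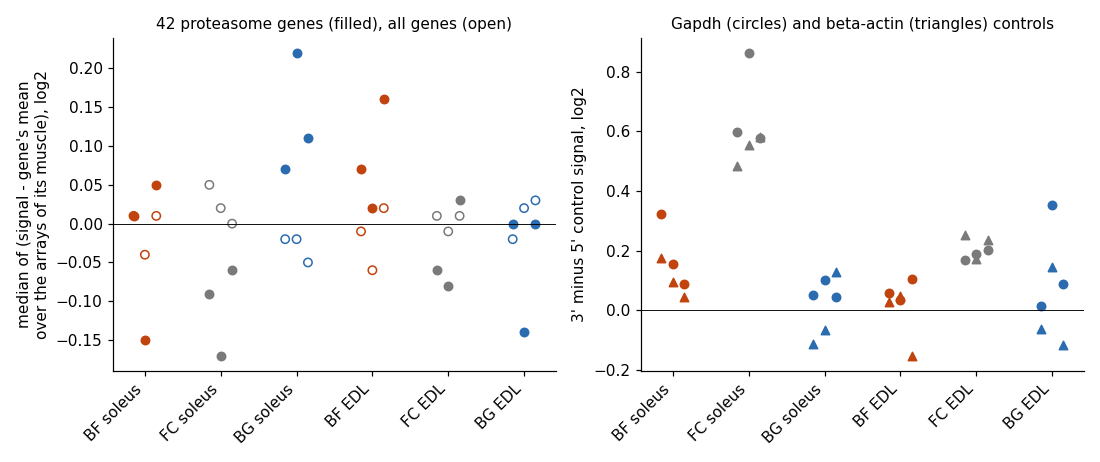
Left, for each array, the median over 42 proteasome genes (filled) and over all genes (open) of the signal minus the gene's mean in that muscle, log2. Right, the 3′ minus 5′ signal of the Gapdh and beta-actin controls by array; BG soleus arrays lie highest among soleus arrays in the left panel, at 0.07 to 0.22, and FC soleus arrays lie highest in the right one.

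Array by array, the 42 genes of the constitutive particle and its helpers (without immunoproteasome genes and the 2 unrelated ones) separated the ground groups of soleus. The median difference from each gene's soleus mean was 0.01, -0.15 and 0.05 in BF, -0.09, -0.17 and -0.06 in FC and 0.07, 0.22 and 0.11 in BG. BG soleus 2 had 37 of 42 genes above their mean and FC soleus 2 had 9. The same median over all genes stayed between -0.05 and 0.05 in soleus. In EDL it was 0.07, 0.02 and 0.16 in BF, -0.06, -0.08 and 0.03 in FC and 0.00, -0.14 and 0.00 in BG, so that BF arrays were above BG arrays and overlapped with FC by 1 array. BG EDL 2, with the lowest of these medians, also had the highest Gapdh 3′ minus 5′ difference in EDL, and the part of its RNA ends was not tested apart from the covariate fits.

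In EDL, none of the 48 genes was called between BF and BG, where 0.266% of all genes were higher and 0.113% lower. By limma 12 of 48 had an unadjusted p under 0.05, against 12.1% of all genes, and the methods' own contrasts, array weights and every other setting tried also called 0. Of all 12393 genes, array weights called 166 higher and 149 lower, and the methods' contrasts called 0. Fold changes were -0.38 to 0.59, with 31 positive and 17 negative and a median of 0.11, against -0.03 over all genes. All 6 cap ATPases had positive values, 0.05 to 0.59, and all 4 immunoproteasome genes negative values, -0.38 to -0.04. Between FC and BG, again none of the 48 was called by limma, array weights or the methods' contrasts, 2 had an unadjusted p under 0.05, against 11.1% of all genes, and 0.0242% of all genes were higher and 0.00807% lower. There array weights called 241 of all 12393 genes higher and 128 lower, and the methods' contrasts called 0.

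Between BF and FC in EDL, 1 of 48 genes was higher and 1 lower, with 1.02% and 2.52% of all genes. Psmd12, a lid subunit, read 11.31, 11.40 and 11.41 in BF EDL, against 10.72, 10.81 and 11.05 in FC EDL (0.51, SE 0.12, adjusted p = 0.022), and the arrays were fully separate. Psme1, a subunit of an interferon-inducible activator that opens the core without ATP, read 8.67, 8.46 and 8.78 in BF EDL, against 9.10, 9.20 and 9.37 in FC EDL (-0.59, SE 0.14, adjusted p = 0.030), again with no overlap. The Psmd12 call was lost without BF EDL 2, BF EDL 3, FC EDL 1 or FC EDL 2 (adjusted p = 0.055, 0.073, 0.078 and 0.086). The Psme1 call was lost without BF EDL 1, BF EDL 2, FC EDL 2 or FC EDL 3 (adjusted p = 0.067, 0.098, 0.086 and 0.14). A fit of EDL alone called neither, and with the 3′ minus 5′ covariate Psme1 was called (-0.87) and Psmd12 was not (0.37, adjusted p = 0.34).

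Psme1 was also the gene called lower in flown soleus against FC: it read 8.51, 8.72 and 8.85 in BF soleus, against 9.15, 8.95 and 9.25 in FC soleus (-0.43, SE 0.14, adjusted p = 0.039). This call was lost without BF soleus 1, BF soleus 2, FC soleus 1 or FC soleus 3 (adjusted p = 0.15, 0.068, 0.089 and 0.14). Against BG soleus, at 9.01, 9.12 and 8.92, the BF arrays did not overlap either, but the change of -0.33 was not called (adjusted p = 0.11). In EDL, BG read 9.02, 8.73 and 9.29 and overlapped with BF (-0.38, adjusted p = 0.30). A test of whether the fold change differed between the muscles did not call Psme1 in BF vs. FC or BF vs. BG.

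The catalytic immunoproteasome subunits gave no called difference. Psmb8, which takes the place of Psmb5, read 6.84, 6.96 and 6.32 in BF soleus, 7.03, 6.59 and 6.71 in FC soleus and 6.14, 6.56 and 6.42 in BG soleus. Its largest change, 0.41 in FC vs. BG soleus, had an SE of 0.19 and an adjusted p of 0.18. Psmb9, which replaces Psmb6, read 6.25, 6.42 and 6.29 in BF soleus, 6.53, 6.34 and 6.37 in FC soleus and 6.06, 6.25 and 6.41 in BG soleus. Psmb10, which replaces Psmb7, read 7.30, 7.33 and 6.85 in BF soleus, 7.44, 6.90 and 7.06 in FC soleus and 7.21, 7.25 and 7.01 in BG soleus. In EDL, Psmb8 lay between 6.20 and 6.84, Psmb9 between 5.89 and 6.67 and Psmb10 between 6.91 and 7.24, with all 3 conditions overlapping.

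**Figure D4:**
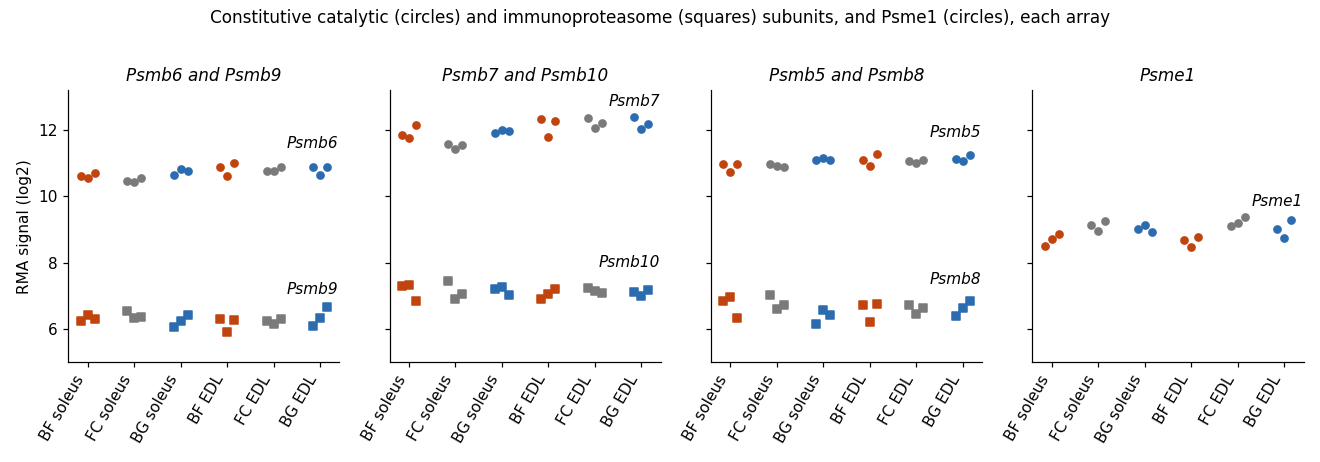
RMA signal (log2, vertical axis) on each array of the 6 groups for the constitutive catalytic subunits (circles) and the immunoproteasome subunits that replace them (squares), and for Psme1. No catalytic subunit is called between conditions within a muscle, and all BF points of Psme1 lie under all FC points, in soleus as in EDL.

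None of their constitutive counterparts was called between conditions. Psmb5, the chymotrypsin-like subunit, read 10.99, 10.72 and 10.97 in BF soleus, 10.97, 10.91 and 10.90 in FC soleus and 11.09, 11.15 and 11.11 in BG soleus. BG lay above both other groups by a narrow margin, and the change of -0.22 in BF vs. BG was not called (SE 0.10, adjusted p = 0.14). Psmb6, the caspase-like subunit, read 10.62, 10.55 and 10.70 in BF soleus, 10.46, 10.43 and 10.55 in FC soleus and 10.64, 10.83 and 10.77 in BG soleus, with changes of -0.12 to BG and 0.15 to FC. Psmb7, the trypsin-like subunit, read 11.85, 11.76 and 12.16 in BF soleus, 11.58, 11.43 and 11.56 in FC soleus and 11.91, 12 and 11.97 in BG soleus. FC was the low group of Psmb7 and overlapped with neither, and its adjusted p was 0.056 against BF and 0.063 against BG. In EDL the lowest adjusted p of the 3 in any comparison of conditions was 0.74.

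Whether a change differed between the muscles was tested as the soleus fold change minus that of EDL. For BF vs. BG this called 6 of 48 genes, all more negative in soleus (12.5%, against 5.04% of all genes in that direction and 4.21% in the other). Of the 7016 genes with a probe set above the median mean signal, 636 were called in that direction and 296 in the other. The 6 were 3 alpha subunits, 2 ATPases and Psmd10. Psmc4 differed most, by -1.44 (SE 0.34, adjusted p = 0.020), with 10.27, 10.83 and 10.20 in BF EDL, against 10.24, 9.59 and 9.70 in BG EDL. There BF and BG overlapped by 1 array and the change was 0.59, opposite in sign to that of soleus. For Psma5 the difference was -0.88 (SE 0.21, adjusted p = 0.020), with 10.86, 10.78 and 10.76 in BF EDL and 10.63, 10.41 and 10.18 in BG EDL.

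Psmc1 differed by -0.84 (SE 0.20, adjusted p = 0.018), with 10.29, 10.31 and 10.34 in BF EDL and 10.09, 9.71 and 9.98 in BG EDL. Psmd10 differed by -0.86 (SE 0.25, adjusted p = 0.040), with 7.35, 7.05 and 7.37 in BF EDL, inside the range of 7.43, 6.63 and 7.31 in BG EDL. Without BG soleus 2 the calls of Psmc4, Psma5 and Psmc1 were lost (adjusted p = 0.053, 0.055 and 0.051), without BG EDL 3 those of Psmc4 and Psma5 (0.052 and 0.058), and without BG soleus 3 that of Psma5 (0.052), while Psmd10 was lost in 8 of 18 fits with 1 array left out (highest adjusted p = 0.098, without BF soleus 1). In Psma5 and Psmc1 the EDL groups did not overlap, BF being higher, though no EDL change was called on its own. Psma1 (-0.74, adjusted p = 0.041) and Psma7 (-0.65, adjusted p = 0.050) were at the threshold, and 9 and 14 of the 18 fits with 1 array left out did not call them. The count of 6 was 0 without BG soleus 2, 2 without BG soleus 3, 1 without BG EDL 3, and 3 without BF soleus 1, BF EDL 1, BF EDL 3 or BG EDL 2. With the 3′ minus 5′ covariate it was 1, Psma5 (-0.95, adjusted p = 0.041).

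**Figure D5:**
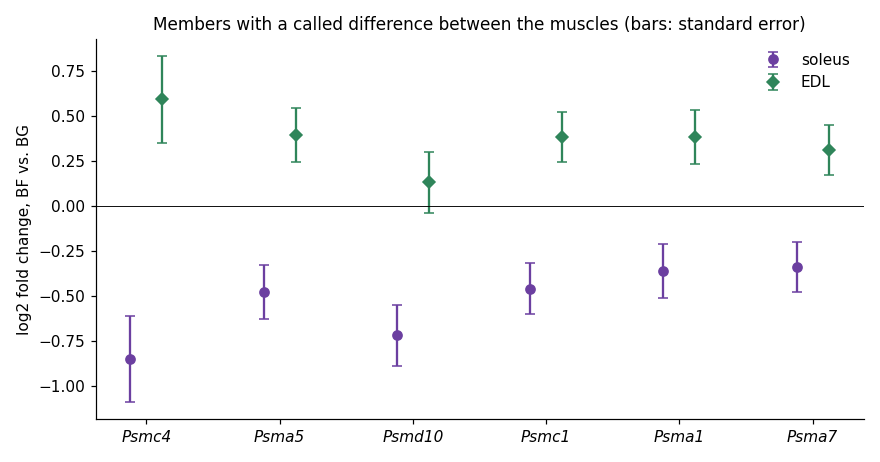
Log2 fold change (vertical axis) between BF and BG in soleus (circles) and EDL (diamonds) of the 6 genes with a called difference between the muscles, with the standard error as bars. All 6 lie below 0 in soleus and above 0 in EDL.

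For BF vs. FC the test called 1 gene, Psmd8, by 1.23 (SE 0.20, adjusted p = 0.0064), with 0.855% of all genes called in that direction and 1.19% in the other. Psmd8 read 11.65, 11.94 and 11.81 in BF EDL, 11.59, 11.40 and 11.47 in FC EDL and 11.57, 11.15 and 11.57 in BG EDL, so that FC soleus, at 10.27 to 10.67, held its lowest arrays. Leaving out any 1 array kept this call, and the 3′ minus 5′ covariate lost it (0.80, adjusted p = 0.10). For FC vs. BG no gene of the 48 was called by limma (14 with an unadjusted p under 0.05, against 15.9% of all genes), 0 of all genes were, and array weights called 8 of the 48, all lower, with 476 of all genes higher and 474 lower.

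Comparing the muscles within a condition, soleus had 1 of 48 genes higher and 4 lower than EDL in BF, 1 higher and 9 lower in FC, and 3 higher and 1 lower in BG. Over all genes, 5.79% were higher and 6.63% lower in BF, 8.0% and 8.4% in FC, and 8.3% and 8.71% in BG. The genes named here were picked after their values were seen. Psme4, an activator cap that binds acetylated histones, read 11.08, 10.47 and 11.07 in BF soleus and 11.71, 11.50 and 11.38 in BF EDL (-0.66, SE 0.17, adjusted p = 0.022). In FC it was 10.83, 10.68 and 10.84 in soleus and 11.54, 11.68 and 11.99 in EDL (-0.96, adjusted p = 0.0011), and in BG 10.54, 11.04 and 10.84 in soleus and 11.41, 11.76 and 11.50 in EDL (-0.75, adjusted p = 0.0064). Soleus arrays were below EDL arrays in each condition, the BF call being lost without BF soleus 2 or BF EDL 1 (adjusted p = 0.13 and 0.087). The brightest probe set of Psme4 was not called among conditions in either muscle, nor was another at a mean signal of 11.18. A dimmer one, at 9.45, was called in soleus. It gave 0.75 in BF vs. FC (adjusted p = 0.0049) and -0.89 in FC vs. BG (adjusted p = 0.0045).

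Psmd5, a chaperone of the ATPase ring, was higher in soleus than in EDL in BG (0.85, SE 0.15, adjusted p = 0.0011), with 8.41, 8.46 and 8.29 in soleus and 7.54, 7.48 and 7.59 in EDL. Psmb7 was lower in soleus in FC (-0.69, SE 0.15, adjusted p = 0.0038), where EDL read 12.37, 12.06 and 12.21. Both calls held in 18 of 18 fits with 1 array left out. With the 3′ minus 5′ covariate Psmd5 stayed called (0.83), while Psmb7 was not (-0.31, adjusted p = 0.67).

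The number of called genes in these comparisons moved with single arrays. In BF, 5 calls became 0 without BF soleus 2, 9 without BF soleus 3, 1 without BF EDL 1 and 2 without BF soleus 1, BF EDL 2 or BF EDL 3. In FC, 10 became 5 without FC soleus 2 or FC EDL 3 and 6 without FC soleus 1, and 1, Psme4, with the 3′ minus 5′ covariate, the FC muscles differing in that signal. In BG, 4 became 7 without BG EDL 1 and 2 without BG soleus 2, BG soleus 3, BG EDL 2 or BG EDL 3. With same-numbered soleus and EDL arrays as a random block, the counts were 8 in BF, 13 in FC and 5 in BG. Over all 12393 genes that fit called 896 higher and 1039 lower in BF, 1154 and 1177 in FC, and 1175 and 1284 in BG.

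Other probe sets of the same genes were read as a check on the choice of the brightest. Of 37, 19 had a mean signal above that of the median gene. Of these 19, FC vs. BG soleus called 7 lower and 0 higher, BF vs. FC soleus 7 higher and 1 lower, and BF vs. BG soleus 3 higher and 4 lower. All 3 that were higher in BF vs. BG belong to Psmd11, and the same 3 are among the 7 higher in BF vs. FC. Probe sets of 1 gene are not independent checks. Over all probe sets, dim ones included, 5.94% were lower and 5.45% higher in FC vs. BG, 9.94% higher and 13.8% lower in BF vs. FC, and 10.3% higher and 11.9% lower in BF vs. BG. For Psma6, picked after its values were seen, the probe sets disagreed: the brightest (mean signal 11.59) gave 0.14 in FC vs. BG soleus (adjusted p = 0.50), and the next (10.84) gave -0.56 (adjusted p = 0.0025). A dim probe set of Psmd7 (5.44) gave 0.45 in the same comparison (adjusted p = 0.031), opposite in sign to its brightest.

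The 2 genes that share only the symbol were not called. Psmc3ip, a partner of the recombinases of meiosis, read 6.23, 5.97 and 5.92 in BF soleus, 5.79, 5.77 and 5.64 in FC soleus and 6.04, 5.68 and 5.91 in BG soleus. Psme3ip1, a binding partner of the nuclear activator Psme3, read 8.30, 7.98 and 8.21 in BF soleus, 8.38, 8.52 and 8.44 in FC soleus and 8.59, 8.21 and 8.32 in BG soleus. Between BF and FC soleus their adjusted p was 0.14 and 0.069.

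Around the particle, 19 of 24 listed partners (regulators, shuttles and the unfoldase system) were measured. In BF vs. BG soleus 0 were higher and 1 lower, in BF vs. FC 2 higher and 3 lower, and in FC vs. BG 0 higher and 2 lower. For this and the lists that follow, the shares over all genes were 11.1% higher and 12.3% lower in BF vs. BG soleus, 9.02% and 16.0% in BF vs. FC soleus, 5.78% and 4.03% in FC vs. BG soleus, and 1.02% and 2.52% in BF vs. FC EDL. Every comparison with FC soleus also differs in RNA ends, as given above. Apart from Fbxo32, the genes of these lists were not refitted with an array left out. Nfe2l1, the transcription factor that raises proteasome genes when the particle is inhibited, averaged 11.07 in BF soleus, against 11.51 in BG soleus (-0.45, SE 0.15, adjusted p = 0.042) and 11.69 in FC soleus (-0.62, SE 0.15, adjusted p = 0.0064). Vcp, the unfoldase that hands ubiquitinated proteins to the proteasome, averaged 11.53 in BF soleus, against 12.11 in FC soleus (-0.57, SE 0.16, adjusted p = 0.015). BF soleus 2 held the lowest BF soleus value of Nfe2l1 (10.71) and of Vcp (11.10). Ufd1, a cofactor of Vcp, was lower in FC soleus than in BG soleus (-0.57, adjusted p = 0.011), as was Uchl5, a deubiquitinase of the cap (-0.53, adjusted p = 0.018). In EDL, BF vs. FC called 2 of the 19, both higher: Zfand5, a binder of the particle known from muscle wasting in mice (0.67, SE 0.17, adjusted p = 0.035), and Nfe2l2, the factor of the antioxidant response (0.54, SE 0.14, adjusted p = 0.044).

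Of 20 listed ubiquitin genes and E1 and E2 enzymes, which charge and carry ubiquitin, 13 were measured. In BF vs. BG soleus 4 were lower and 0 higher, in BF vs. FC 3 higher and 2 lower, and in FC vs. BG 3 lower and 0 higher. Ube2g2, an E2 of the endoplasmic reticulum, averaged 9.35 in BF soleus, against 10.29 in BG soleus (-0.94, SE 0.10, adjusted p = 1.3e-05) and 10.23 in FC soleus (-0.87, adjusted p = 1.7e-05). Ube2r2, an E2 of the cullin ligases, changed by -0.71 against BG (SE 0.16, adjusted p = 0.0049), and Ube2b, an E2 abundant in muscle, by -0.64 (SE 0.17, adjusted p = 0.013). No gene of the list was called in EDL between conditions.

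Of 20 listed ubiquitin ligases of muscle, 13 were measured, and BF vs. BG soleus called 1 lower, BF vs. FC 1 higher and 2 lower, FC vs. BG none (limma). Ube4b, which extends ubiquitin chains, averaged 7.35 in BF soleus, against 8.21 in BG soleus (-0.85, SE 0.17, adjusted p = 0.0020) and 8.35 in FC soleus (-0.99, adjusted p = 0.00048). Fbxo32 (atrogin-1), the ligase most often used as a mark of atrophy, read 11.38, 8.36 and 12.18 in BF soleus, 11.16, 10.95 and 10.94 in FC soleus and 10.48, 11.11 and 10.49 in BG soleus. BF soleus 2 lay below every other array, and the other 2 BF soleus arrays lay above all FC and BG soleus arrays. With all arrays the change was -0.05 against BG and -0.38 against FC, each with an SE of 0.59, and neither was called. Without BF soleus 2, a fit made after seeing the data, it was 1.09 (SE 0.22, adjusted p = 0.0038) against BG and 0.76 (SE 0.22, adjusted p = 0.024) against FC.

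In EDL, Fbxo32 read 12.33, 12.70 and 12.70 in BF, 11.16, 11.17 and 10.72 in FC and 11.39, 11.51 and 11.55 in BG. All BF EDL arrays were above all FC and BG EDL arrays. The changes of 1.56 against FC and 1.09 against BG were not called (SE 0.59, adjusted p = 0.16 and 0.49), in a model whose estimate of the spread includes BF soleus 2. Without that array the same changes had an SE of 0.20 and adjusted p-values of 0.00057 and 0.019.

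Of 20 listed interferon and antigen-processing genes, the setting of the immunoproteasome, 17 were measured. In BF vs. BG soleus 3 were higher and 1 lower, in BF vs. FC 1 higher and 3 lower, and in FC vs. BG 2 higher and 0 lower. Tapbp, which loads peptides on class I molecules, was lower in BF soleus than in BG soleus (-0.54, SE 0.13, adjusted p = 0.0078) and FC soleus (-0.86, adjusted p = 0.00021), and lower in BF EDL than in FC EDL (-0.52, adjusted p = 0.036). In these comparisons Psme1 changed by the -0.33 (not called), -0.43 and -0.59 given above. Tap2, a peptide transporter (-0.45, adjusted p = 0.040), and Gbp2, an interferon-induced GTPase (-0.65, adjusted p = 0.0021), were lower in BF soleus than in FC soleus, and Erap1, a peptidase that trims peptides for class I molecules, was higher (0.51, adjusted p = 0.015). The 3 genes that were higher in BF soleus than in BG soleus were Ifit1 (0.91, adjusted p = 0.032), Irf8 (0.48, adjusted p = 0.045) and Ifi47 (0.42, adjusted p = 0.026), all induced by interferon. Igtp (0.63, adjusted p = 0.034) and Ifi47 (0.50, adjusted p = 0.020), both interferon-induced GTPases, were higher in FC soleus than in BG soleus.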

How the data were processed

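RNA (100 ng) of each muscle was labelled by the 3′ IVT Express protocol and hybridised to an Affymetrix mouse GeneChip. The deposited values are log2 signals, made by the authors with RMA in Partek (background correction, quantile normalization and probe summary). The table held 22690 probe sets, of which 64 controls were left out of the tests, and 20380 named 1 gene through the platform annotation. Array medians were 6.17 to 6.26, and the number of arrays limits the precision. The labels give 3 muscles per group but no animal numbers, so p-values measure only the spread between these samples.

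One limma (3.58.1, R 4.3.3) model of 6 group means over the 18 arrays gave every contrast, with eBayes, a two-sided moderated test and Benjamini-Hochberg adjustment over 22626 probe sets. The linear contrasts of the methods' one-way model, without moderation, were an alternative. The script was tested on simulated data. Tables and figures used Python 3.11.15, pandas 2.3.3, numpy 2.4.6 and matplotlib 3.10.9.

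Named with all array values were the called genes with the lowest adjusted p (at most 8 in a soleus contrast and 4 in others), the catalytic and immunoproteasome genes and the 2 unrelated ones. Other called genes were named after their values were seen, to complete a count. Alternatives changed array scaling, the filter on dim probe sets, the probe set of a gene, the variance model, array weights, the arrays in the fit, the replicate block, the call rule and each array in turn. The 3′ minus 5′ covariate, the use of any probe set and the fit of Fbxo32 without BF soleus 2 were added after seeing the data. Members and lists were chosen with earlier results of these data known.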

Additional observations from a re-analysis of the deposited data

Results flagged for a closer look

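For 6 genes the change between BF and BG differed between the muscles by a test of the difference itself (limma, adjusted p under 0.05). The soleus minus EDL log2 fold change was -1.44 for Psmc4, -0.88 for Psma5, -0.86 for Psmd10, -0.84 for Psmc1, -0.74 for Psma1 and -0.65 for Psma7. For Psmd8 the change between BF and FC differed between the muscles by 1.23. Outside the main measurement, the end controls of FC soleus stood above those of BF soleus and BG soleus, at a mean 3′ minus 5′ difference of 0.68 for Gapdh and 0.54 for beta-actin. The part of the RNA ends in these results was not tested beyond the covariate fit, which cannot separate it from the FC soleus group.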

How the results depend on the processing

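The values here are numbers of the 48 genes called. In soleus BF vs. BG, 10 calls became 4 under quantile normalization within each muscle (1184 and 1208) and 2 with the methods' contrasts (464 and 848). They became 6 with each muscle alone (1161 and 1361), 16 with array weights (2326 and 2035), 3 with the 3′ minus 5′ covariate and 0 past 2-fold under either p. In soleus BF vs. FC, 10 became 5 with the methods' contrasts (541 and 1295), 0 with the covariate and 1 past 2-fold. In soleus FC vs. BG, 11 became 17 with arrays centred (488 and 716), 7 under quantile normalization (678 and 409) and 4 with the methods' contrasts (202 and 133). They became 21 with array weights (1820 and 1186), 0 with the covariate and 2 past 2-fold. In EDL BF vs. FC, 2 became 0 with the methods' contrasts (16 and 15), with EDL alone (90 and 190) or past 2-fold. They became 4 with array weights (699 and 1185) and 1 with the covariate. For soleus vs. EDL in BF, 5 became 3 under quantile normalization (765 and 668) or the covariate, and 8 with the dim probe sets left out (569 and 928 of 7016). They became 8 with a random replicate block (896 and 1039), 10 with array weights (1350 and 1420) and 0 past 2-fold. In FC, 10 became 6 under quantile normalization (1015 and 987), 18 with array weights (1688 and 1610), and 1 with the covariate or past 2-fold. In BG, 4 became 7 with arrays centred (1216 and 860), 2 under quantile normalization (913 and 1153), 8 with array weights (1474 and 1719) and 0 past 2-fold. For the difference between muscles in BF vs. BG, 6 became 2 under quantile normalization (420 and 407) and 3 with the mean of all probe sets (547 and 652). They became 1 with the covariate or past 2-fold and 10 with any probe set. The use of any probe set gives a gene with up to 6 of them several chances of a call. Its count over all genes was not computed, nor were those past 2-fold, so these counts have no background. In BF vs. FC, 1 became 0 with the covariate. In FC vs. BG, 0 became 1 with arrays centred (1 and 7) or a random replicate block (2 and 8), 8 with array weights (476 and 474) and 3 past 2-fold at an unadjusted p.

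Leaving out 1 array gave 2 to 11 calls in soleus BF vs. BG, 7 to 11 in BF vs. FC and 4 to 14 in FC vs. BG, without the counts over all genes beside them. In EDL it gave 0 in BF vs. BG and FC vs. BG and 0 to 2 in BF vs. FC. Between muscles it gave 0 to 9 in BF, 5 to 12 in FC and 2 to 7 in BG, and for the differences between muscles 0 to 8, 1 and 0 to 4 in BF vs. BG, BF vs. FC and FC vs. BG.

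Directions held for the 59 calls except with the covariate and the mean of probe sets. With the covariate, soleus BF vs. FC turned to -0.15 for Psma1, -0.02 for Psmd12 and -0.22 for Psmd7, soleus FC vs. BG to 0.05 for Psmd6, 0.35 for Psmg2, 0.43 for Psmd10, 0.07 for Psmd12 and 0.11 for Psmd7, and soleus vs. EDL in FC to 0.05 for Psma1 and 0.20 for Psmg2. The mean of all probe sets turned Psmd7 in soleus vs. EDL in BG to -0.09. The cause was not tested. Without BF soleus 2, Fbxo32 turned to 1.09 in soleus BF vs. BG and to 0.76 in BF vs. FC. The replicate number did not pair the arrays by the rule used (every pair over 0.1), which cannot exclude a pairing. Same-number correlations were -0.13 to 0.30 within a muscle and -0.0491 to 0.373 between soleus and EDL. There the FC pairs, at 0.373, 0.159 and 0.199, were over 0.1 and the BF and BG pairs were not all so. Arrays of different number correlated at -0.276 to 0.187 between soleus and EDL. A random replicate block over both muscles kept 59 of 59 calls, and a replicate block within each muscle gave 9, 10 and 13 calls in the soleus contrasts and kept 51 of 59 calls. Of all 12393 genes, the block within each muscle called 1431 higher and 1565 lower in soleus BF vs. BG. It called 1138 and 1994 in soleus BF vs. FC and 705 and 538 in soleus FC vs. BG.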
